A study of Mus musculus with 90 samples.

Results

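Among the livers of 41 female Diversity Outbred mice that had received vehicle, the 13 with the highest and the 13 with the lowest transcript levels of serum amyloid A were compared. The score of a liver was the mean of log2(value + 1) of Saa1 and Saa2 in the authors' normalized table, so the 26 livers were chosen on measured values, out of 90 in the series. The 15 vehicle livers between the groups are described beside them. Saa1 and Saa2 chose the animals and are in none of the results. High and low are therefore not groups of the study's design.

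Diversity Outbred (J:DO) mice descend from several inbred founder strains by random mating, so no 2 animals share a genotype. The 41 vehicle animals received oral sterile distilled water daily over 7 days, and the 49 other animals zileuton, an inhibitor of 5-lipoxygenase, at 300 mg per kg on the same schedule. Animals were female, aged 6 to 20 weeks, and each gave 1 liver library. No challenge with an infectious or inflammatory agent is named in the labels.

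Serum amyloid A proteins are acute phase proteins. Hepatocytes make them when interleukin 6, interleukin 1 and related cytokines activate STAT3, NF-kB and C/EBP factors, and they circulate on high density lipoprotein. Other acute phase genes of the liver include the orosomucoids, haptoglobin, hemopexin, lipocalin 2 and the fibrinogen chains. Kupffer cells, the macrophages of the liver sinusoids, are a local source of the inducing cytokines.

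The score of the high livers ran from 9.89 to 16.3 with a median of 11.01, and that of the low livers from 7.12 to 8.57 with a median of 7.85. The last liver inside the high group scored 9.889 and the first outside it 9.879, while the last inside the low group scored 8.57 and the first outside it 8.74. The upper boundary thus separated neighbours of nearly equal score. Saa1 ran from 1078 to 90848 normalized counts in the high livers and from 175 to 684 in the low livers. A set of 4 livers, vehicle replicates 9, 16, 23 and 40, stood above the others at scores of 16.3, 14.5, 13.9 and 12.8. Zileuton livers scored 6.42 to 12.6 with a median of 8.71, and 7 of 49 reached the level of the high group.

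**Figure D1:**
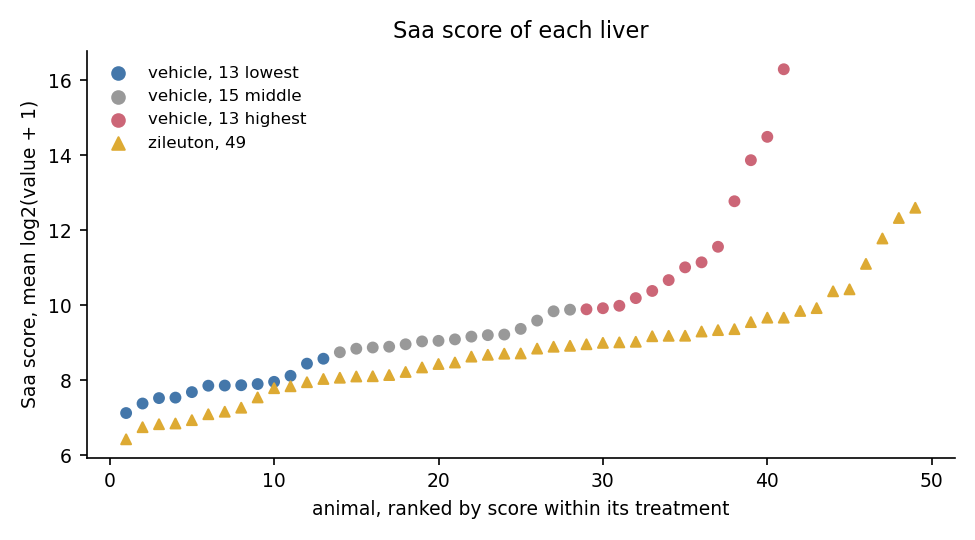
Saa score of each liver (y axis, mean log2 of the normalized value + 1 of Saa1 and Saa2) by rank within its treatment (x axis). Points are vehicle livers coloured by group and triangles are zileuton livers. The 13 high livers span 9.89 to 16.3 and the 13 low livers 7.12 to 8.57.

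The libraries of the groups differed in depth. The total estimated count was 31105079 ± 5737627 (SD, n = 13) in the high livers and 24848145 ± 8431595 (SD, n = 13) in the low livers (two-sided permutation test, 100000 resamples, p = 0.0379). Animal numbers fall into 8 runs of 50, whose meaning the labels do not give. Run 6 held 0 high and 4 low livers, and run 2 held 3 high and 0 low livers. The groups were also uneven over the plate rows of the libraries. Rows B and H each held 0 high and 3 low livers, and rows A and G each 3 high and 1 low. Black coats were recorded for 4 high and 1 low animals. The common biological coefficient of variation was 29.6%. Levels are CPM, library-scaled counts with TMM factors. The middle liver of replicate 8 held 6264 CPM of skeletal muscle markers and 1 zileuton liver 2948 CPM, while no high or low liver exceeded 3.66 CPM.

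Genes higher in the livers with high Saa included 5 of 29 rising acute phase genes, 7 of 16 genes of antigen presentation, 5 of 23 complement genes and 4 of 12 monocyte and macrophage markers. Of 13107 genes tested with the edgeR quasi-likelihood F test, 152 passed an adjusted p under 0.05 (1.16%), 143 of them higher (1.09%) and 9 lower (0.0687%) in high livers. Of the higher genes, 49 differed at least 2-fold, and none of the lower ones did. In 137 of the 143 higher genes the median of the middle livers lay between those of the low and high livers, against 34.2% of all genes tested. The higher genes were called for a gap between the extremes, so a middle median between them is likelier than over all genes. The contrast is therefore not a test of a graded change. The median difference over all genes tested was −0.01 (log2).

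The number of calls depended on what else entered the fit. With a term for the run or for the plate row of the library, 0 genes passed the edgeR test, with 810 and 838 genes at an unadjusted p under 0.05, against 1459 without a covariate; with the library total as a covariate 62 genes were higher and 1 lower. None of the 152 genes changed sign in these 3 fits. The differences were smaller with the term for the run, at 1.62 for Lcn2, 1.39 for Marco, 0.93 for Orm2 and −0.27 for Scarf1 (log2, none called), against 3.24, 2.71, 2.07 and −0.66 without it. Across the 36 called genes that the naming rule took, the ratio of the 2 values had a median of 0.742 and ran from 0.409 to 1.19. Without vehicle replicate 9, the liver of highest score, 86 genes passed, and 14 of those 36 were no longer called. These included Cybb (adjusted p = 0.0546), Fpr1 (0.0998), Ctss (0.105), Alox5ap (0.105), Il2rb (0.054), Abcg1 (0.0665) and Scarf1 (0.0665). With the score as a slope over all 41 vehicle livers, 214 genes were higher and 9 lower, and 96 of the 152 were called. Among those not called in it were Marco (adjusted p = 0.0967), Il2rg (0.0966), Saa3 (0.0996), Gbp2b (0.121) and Cxcl9 (0.339). With 10 against 10 livers 2 genes passed, with a score from Saa1 alone 4, and without the 5 libraries of lowest total 3, again with no change of sign among the 152 genes that were tested there. Those 5 libraries, replicates 6, 18, 30, 31 and 34, were all of low livers, and replicates 30 and 18 had the lowest scores. That fit thus also shrank the low group and is not a check of depth alone.

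Of the Saa relatives, Saa3 passed and Saa4 did not. Saa3, an inducible serum amyloid A gene expressed by macrophages and other cells as well as by liver (chromosome 7, 46711998 to 46715700, mm10), ranged in low livers from 0.850 to 3.83 CPM with a median of 1.58. In high livers it ranged from 1.83 to 8.79 CPM with a median of 4.796. All 13 high livers lay above the low median, although the ranges overlapped (log2 difference 1.38 ± 0.24 SE, adjusted p = 0.00673). Saa4, a constitutively expressed member, had medians of 246 CPM in low and 294 CPM in high livers (log2 difference 0.49 ± 0.17 SE, adjusted p = 0.167).

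Of 29 rising acute phase genes tested, 5 were higher, 0 were lower and 24 did not pass, and their median difference was 0.39 (log2). The 5 were Lcn2, Orm2, Lrg1, Fgl1 and Serpina3n. Lcn2, lipocalin 2, which binds bacterial siderophores (chromosome 2, 32384633 to 32388252), ranged from 0.276 to 22.1 CPM (median 6.22) in low livers, from 6.39 to 79.8 CPM (median 15.1) in middle livers and from 6.86 to 483 CPM (median 33.8) in high livers. The highest value belonged to replicate 9, and 8 of 13 high livers lay above every low liver. The log2 difference of Lcn2 was 3.24 ± 0.67 SE (adjusted p = 0.0158), and 2.33 without replicate 9 (adjusted p = 0.0346). Orm2, an orosomucoid that binds small molecules in plasma (chromosome 4, 63362449 to 63365878), ranged from 4.32 to 18.3 CPM (median 10.4) in low livers, from 7.02 to 28.7 CPM (median 17.98) in middle livers and from 3.63 to 294 CPM (median 24.8) in high livers. In 10 of 13 high livers Orm2 exceeded every low liver, yet the lowest value of all was in a high liver too. The log2 difference of Orm2 was 2.07 ± 0.47 SE (adjusted p = 0.0236), and 1.32 without replicate 9 (adjusted p = 0.0411).

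Lrg1, a secreted leucine-rich glycoprotein, had medians of 199 CPM in low, 271 CPM in middle and 378 CPM in high livers (log2 difference 1.06 ± 0.25 SE, adjusted p = 0.0282). Fgl1, a hepatocyte-secreted fibrinogen-like protein, had medians of 441, 510 and 783 CPM in that order (log2 difference 1.03 ± 0.25 SE, adjusted p = 0.0389). Serpina3n, a serine protease inhibitor, differed by 0.40 ± 0.10 SE (adjusted p = 0.0371). The medians of the middle livers lay between those of the extremes in each of these 3 genes.

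Among the acute phase genes that did not pass were several secreted proteins of hepatocytes. Hp, haptoglobin, had medians of 2268 CPM in low and 2825 CPM in high livers (log2 difference 0.56 ± 0.22 SE, adjusted p = 0.284). Hpx, hemopexin, which binds haem, had medians of 2778 and 4610 CPM (log2 difference 0.60 ± 0.16 SE, adjusted p = 0.0682). Hamp, hepcidin, the hormone of iron export, differed by 0.66 ± 0.30 SE (adjusted p = 0.392). Apcs, serum amyloid P, differed by 0.72 ± 0.26 SE (adjusted p = 0.207), Orm1 by 0.56 ± 0.38 SE (adjusted p = 0.644) and Orm3 by 0.69 ± 0.40 SE (adjusted p = 0.558). The orosomucoid genes are close copies, so how the authors' counting divided their reads is uncertain. Fgb, the beta chain of fibrinogen, differed by 0.23 ± 0.13 SE (adjusted p = 0.517). Lbp, the lipopolysaccharide-binding protein, differed by 0.39 ± 0.15 SE (adjusted p = 0.244).

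None of 20 negative acute phase genes passed, with a median difference of 0.04. Alb, albumin, had medians of 99390 CPM in low and 99068 CPM in high livers (log2 difference −0.07 ± 0.10 SE, adjusted p = 0.868). Apoa1, the main apolipoprotein of high density lipoprotein, differed by −0.02 ± 0.19 SE (adjusted p = 0.983), and Ttr, transthyretin, by −0.27 ± 0.12 SE (adjusted p = 0.377). None of 24 genes of the IL-6 and STAT3 pathway and none of 30 genes of the IL-1, TNF and NF-kB pathway passed. Stat3 itself had medians of 89.0 CPM in low and 106 CPM in high livers (log2 difference 0.32 ± 0.12 SE, adjusted p = 0.22), and Socs3, its feedback inhibitor, differed by 0.42 ± 0.26 SE (adjusted p = 0.595). Il1b, interleukin 1 beta, differed by 0.42 ± 0.46 SE (adjusted p = 0.816), and Il6ra, the interleukin 6 receptor, by −0.07 ± 0.18 SE (adjusted p = 0.93). Il6 was too low to test, at 0 CPM in 10 of 13 low and 10 of 13 high livers.

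**Figure D2:**
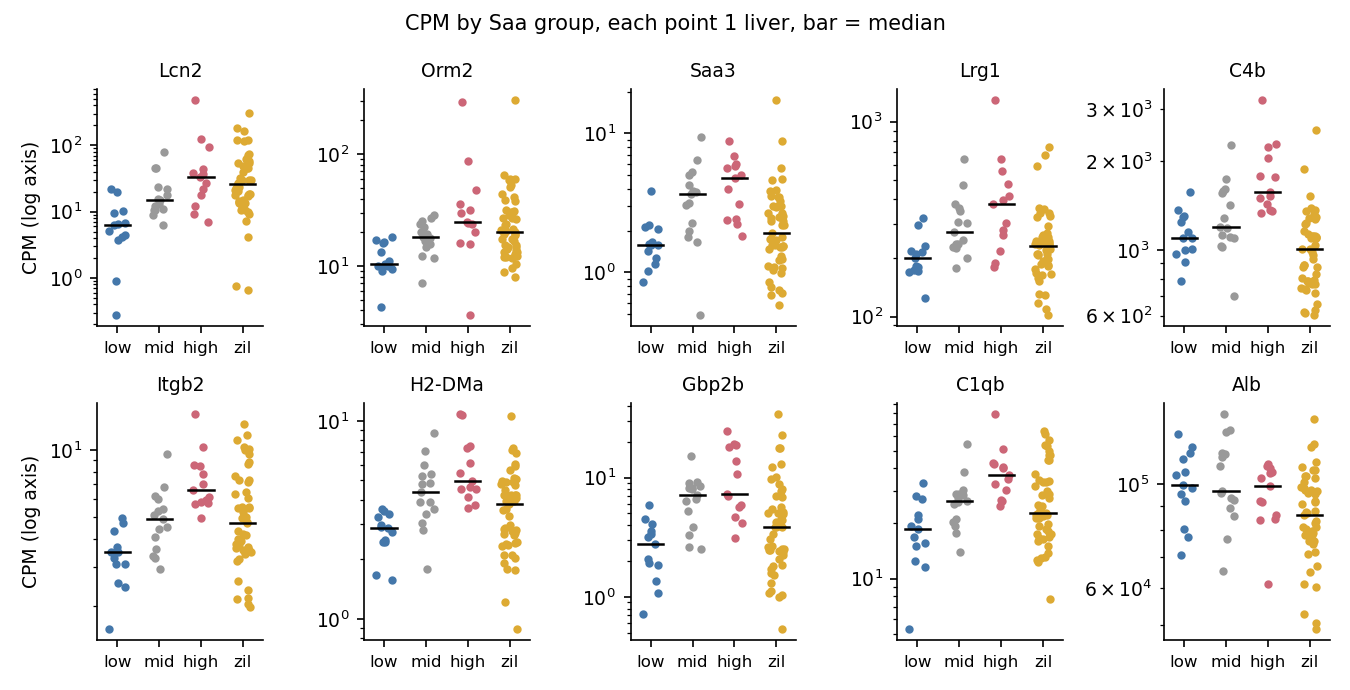
CPM of 10 genes (y axis, log scale) in low (n = 13), middle (mid, n = 15), high (n = 13) and zileuton (zil, n = 49) livers. Each point is 1 liver and each bar a median. Itgb2 and H2-DMa do not overlap between low and high livers, and among vehicle livers Lcn2 and Orm2 reach their highest values in replicate 9.

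Itgb2 and H2-DMa were the genes whose groups did not overlap. Itgb2, the beta 2 integrin chain shared by leukocyte adhesion receptors (chromosome 10, 77530252 to 77565708), ranged from 1.57 to 4.93 CPM (median 3.48) in low livers, from 2.93 to 9.60 CPM (median 4.90) in middle livers and from 4.97 to 14.5 CPM (median 6.60) in high livers. All high livers lay above all low livers, which held for 2 of 13107 genes (0.0153%). The log2 difference of Itgb2 was 1.14 ± 0.17 SE (adjusted p = 0.00132). The second such gene was H2-DMa, a subunit of the chaperone that loads peptides onto class II molecules (chromosome 17, 34119541 to 34139101), with 1.58 to 3.59 CPM in low and 3.65 to 10.8 CPM in high livers (log2 difference 1.12 ± 0.18 SE, adjusted p = 0.00409). Il2rg, the common gamma chain of cytokine receptors (chromosome X, 101264378 to 101268255), ranged from 0.578 to 1.49 CPM in low and from 1.25 to 5.596 CPM in high livers, and 12 of 13 high livers exceeded every low liver (log2 difference 1.33 ± 0.19 SE, adjusted p = 0.00132).

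Of 16 genes of antigen presentation tested, 7 were higher and 9 did not pass, with a median difference of 0.74. Besides H2-DMa these were H2-DMb1 (1.01 ± 0.17 SE, adjusted p = 0.00541), its partner subunit, the class II chains H2-Ab1 and H2-Aa, the invariant chain Cd74, the class I gene H2-K1 and Tapbp, tapasin, which loads class I molecules. Cd74 ranged from 29.4 to 120 CPM (median 72.4) in low and from 97.2 to 245 CPM (median 135) in high livers. All 13 high livers lay above the low median for H2-DMa, H2-DMb1, H2-Ab1, H2-Aa and Cd74. That held for 86 of the 143 higher genes.

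Of 23 complement genes, 5 were higher and 18 did not pass, and 23 of 23 differences were positive, against 46.1% over all genes tested. C1qa, C1qb and C1qc encode the chains of C1q, which macrophages make. C1qb (chromosome 4, 136880129 to 136886187) ranged from 5.27 to 33.3 CPM (median 18.7) in low and from 24.8 to 79.2 CPM (median 36.9) in high livers, so that the ranges overlapped (log2 difference 1.04 ± 0.21 SE, adjusted p = 0.0141). C1qc differed by 0.97 ± 0.20 SE (adjusted p = 0.0183) and C1qa by 0.91 ± 0.19 SE (adjusted p = 0.015). C4b, a complement component made by hepatocytes, ranged from 786 to 1568 CPM (median 1101) in low and from 1328 to 3219 CPM (median 1575) in high livers (log2 difference 0.66 ± 0.13 SE, adjusted p = 0.0112). Serping1, the inhibitor of C1, differed by 0.48 ± 0.11 SE (adjusted p = 0.0236).

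All 35 interferon response genes tested had positive differences (46.1% over all genes), with a median of 0.53, but 2 passed. They were Igtp, an interferon-induced GTPase (1.04 ± 0.25 SE, adjusted p = 0.0342), and Gbp7, a guanylate-binding protein (0.70 ± 0.17 SE, adjusted p = 0.0347). Neither was called without replicate 9 (adjusted p = 0.0669 for Igtp and 0.0737 for Gbp7). Gbp2b, another guanylate-binding protein and no member of that list (chromosome 3, 142594847 to 142619179), ranged from 0.723 to 5.94 CPM (median 2.80) in low, from 2.51 to 15.2 CPM (median 7.20) in middle and from 3.11 to 24.4 CPM (median 7.22) in high livers. Its middle and high medians were nearly equal, and the log2 difference was 1.94 ± 0.34 SE (adjusted p = 0.00673). Of 12 chemokines, 1 passed, Cxcl9, a ligand of Cxcr3 that interferon gamma induces. Cxcl9 ranged from 3.65 to 14.7 CPM (median 7.21) in low and from 10.1 to 31.6 CPM (median 14.7) in high livers (log2 difference 0.96 ± 0.21 SE, adjusted p = 0.02).

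**Figure D3:**
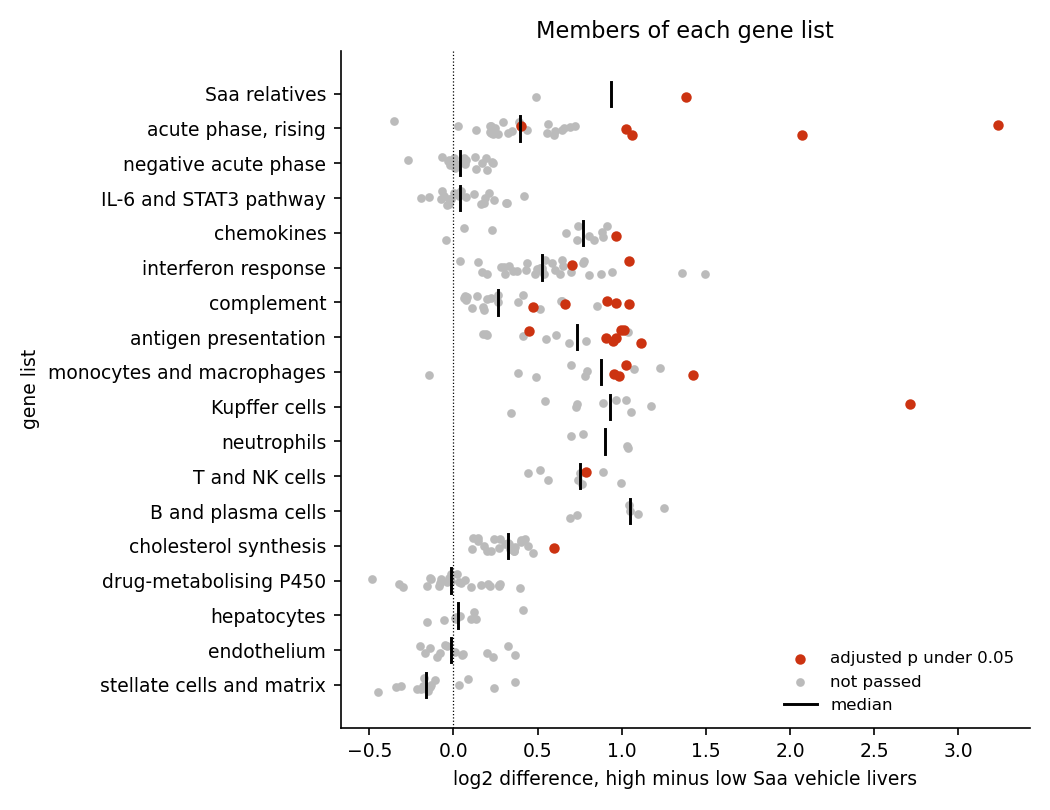
Log2 difference of high minus low vehicle livers (x axis) for each tested member of 18 gene lists (y axis). Red points passed an adjusted p under 0.05 in the edgeR test, grey points did not, and black bars are list medians. All 7 called genes of antigen presentation and all 5 of complement lie right of 0, and hepatocyte, P450 and endothelial medians lie near 0.

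Most immune cell markers tested did not pass, but over all genes tested only 1.09% were called higher. Differences were positive in 11 of 12 monocyte and macrophage, 9 of 9 T and NK cell, 6 of 6 B and plasma cell and 4 of 4 neutrophil markers. Over all genes tested 46.1% were positive, and members of a list vary together. Of 12 tested monocyte and macrophage markers 4 were higher, Fcgr1, Ctss, Spi1 and Cd68, with a median difference of 0.87. Fcgr1, the high-affinity receptor for immunoglobulin G, differed by 1.42 ± 0.29 SE (adjusted p = 0.015), and Ctss, the lysosomal protease cathepsin S, by 1.02 ± 0.26 SE (adjusted p = 0.0483). All 10 Kupffer cell markers had positive differences with a median of 0.93, and 1 passed, Marco, a scavenger receptor for bacteria (chromosome 1, 120474538 to 120505024). Marco ranged from 0.0425 to 1.201 CPM (median 0.405) in low and from 0.121 to 10.7 CPM (median 2.63) in high livers, and 9 of 13 high livers exceeded every low liver (log2 difference 2.71 ± 0.53 SE, adjusted p = 0.0114). Of 9 T and NK cell markers 1 was higher, Il2rb, a chain of the interleukin 2 and 15 receptors (0.79 ± 0.19 SE, adjusted p = 0.0347). None of 6 B and plasma cell markers and none of 4 neutrophil markers passed, at medians of 1.05 and 0.90. The neutrophil gene S100a9 differed by 1.04 ± 0.76 SE and by −0.37 without replicate 9.

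The sums of immune cell markers had higher medians in high than in low livers, and the sums were not tested. The sum of 16 monocyte and macrophage markers ranged from 24.6 to 115 CPM (median 70.1) in low and from 75.7 to 251 CPM (median 102) in high livers. That of 10 Kupffer cell markers had medians of 200 and 343 CPM, and that of 15 T and NK cell markers medians of 6.71 and 10.4 CPM. The 17 neutrophil markers together stayed low, at medians of 2.56 and 5.19 CPM with a highest value of 78.8 CPM in a high liver and 37.1 CPM in a low liver. None of these markers was at 0 in all livers of a group. The sums of hepatocyte markers had medians of 22380 CPM in low and 22073 CPM in high livers, those of endothelial markers 300 and 309 CPM, and those of stellate cell markers 349 and 346 CPM. Red blood cell markers summed to medians of 246 CPM (168 to 1029) in low and 325 CPM (153 to 524) in high livers. None of the 9 tested passed, and 2 of 9 differences were positive, with a median of −0.07 (log2). For pancreas markers the medians were 35.3 and 26.9 CPM, and for mesothelium and gut markers 73.8 and 63.6 CPM. None of 7 tested mesothelium and gut markers passed, at a median difference of −1.09 (log2). In bulk tissue more cells of a type and more RNA per cell cannot be told apart, and the part of cell number in the immune genes was not tested.

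**Figure D4:**
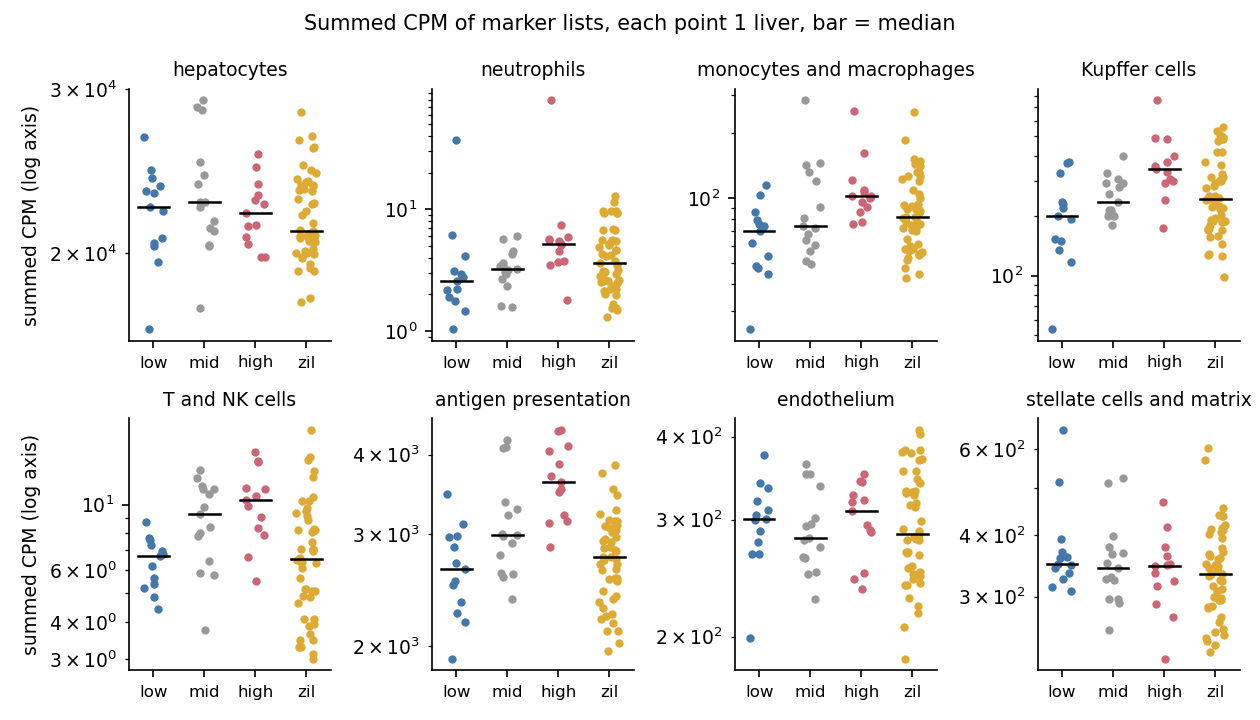
Summed CPM of 8 marker lists (y axis, log scale) in low (n = 13), middle (n = 15), high (n = 13) and zileuton (n = 49) livers. Each point is 1 liver and each bar a median. The monocyte and macrophage median is 70.1 CPM in low and 102 CPM in high livers, and the hepatocyte medians are 22380 and 22073 CPM.

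Several receptors of immune cells, an interleukin and a signalling adaptor passed outside these marker lists. Fcgr4, an activating receptor for immunoglobulin G, differed by 1.53 ± 0.31 SE (adjusted p = 0.0126). Klra2, a lectin-like receptor of NK and myeloid cells, differed by 1.57 ± 0.30 SE (adjusted p = 0.0099), and Siglece, an inhibitory sialic acid receptor, by 1.35 ± 0.25 SE (adjusted p = 0.00988). Il7, the interleukin that sustains lymphocytes, had medians of 0.759 CPM in low and 2.25 CPM in high livers (log2 difference 1.53 ± 0.28 SE, adjusted p = 0.00967). Fpr1, a receptor for formyl peptides on phagocytes, differed by 1.27 ± 0.32 SE (adjusted p = 0.0399). Themis2, a signalling adaptor of B cells and macrophages, differed by 1.16 ± 0.23 SE (adjusted p = 0.0114).

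Cybb, the catalytic subunit of the phagocyte NADPH oxidase (chromosome X, 9435252 to 9487771), had medians of 5.96 CPM in low, 8.95 CPM in middle and 12.96 CPM in high livers (log2 difference 1.18 ± 0.27 SE, adjusted p = 0.0293). The subunit genes Cyba (log2 difference 0.70), Ncf1 (0.87), Ncf4 (0.99) and Rac2 (1.06) were called higher too, and were picked for naming after their values were seen. Alox5ap, which presents arachidonic acid to 5-lipoxygenase, the target of zileuton, had medians of 1.43 CPM in low and 2.57 CPM in high livers (log2 difference 0.92 ± 0.24 SE, adjusted p = 0.0492). Alox5, 5-lipoxygenase itself, was too low to test, with medians of 0.0843 CPM in low and 0.105 CPM in high livers.

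Few metabolic genes passed. Sqle, squalene epoxidase of cholesterol synthesis, ranged from 61.6 to 129 CPM (median 99.0) in low and from 96.0 to 268 CPM (median 137) in high livers (log2 difference 0.60 ± 0.13 SE, adjusted p = 0.0233). It was the only one of 23 cholesterol synthesis genes to pass, while 23 of 23 differences were positive with a median of 0.33. Over all genes tested 46.1% were positive, and members of a list vary together. Abcg1, an exporter of cholesterol to high density lipoprotein, differed by 0.64 ± 0.15 SE (adjusted p = 0.0321). None of 25 drug-metabolising P450 genes passed. Cyp3a11 had medians of 3383 CPM in low and 2178 CPM in high livers (log2 difference −0.48 ± 0.27 SE, adjusted p = 0.545), and Cyp2e1 differed by −0.14 ± 0.14 SE (adjusted p = 0.805). None of 29 genes of fatty acid oxidation and none of 26 ribosomal protein genes passed.

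The 9 lower genes belonged to none of the lists. The lowest adjusted p among them was that of D130020L05Rik, annotated by GENCODE as an antisense RNA (log2 difference −0.80 ± 0.17 SE, adjusted p = 0.02). Strand use in the counting is not given, so its reads and those of the gene on the opposite strand cannot be told apart. Scarf1, a scavenger receptor of endothelial cells, ranged from 6.41 to 14.98 CPM (median 11.5) in low and from 2.71 to 11.1 CPM (median 7.03) in high livers (log2 difference −0.66 ± 0.17 SE, adjusted p = 0.0492). Gng11, a G protein gamma subunit, differed by −0.55 ± 0.13 SE (adjusted p = 0.03) and Slc6a8, the creatine transporter, by −0.59 ± 0.14 SE (adjusted p = 0.0347). Atm, the kinase of the DNA damage response, differed by −0.35 ± 0.08 SE (adjusted p = 0.0318), and Fam216a by −0.70 ± 0.18 SE (adjusted p = 0.0469). The long non-coding RNA 1500026H17Rik differed by −0.97 and the protein-coding gene E330009J07Rik by −0.35. The remaining gene, under the rule's level of 1 CPM and named after its values were seen, was Mgat3, an enzyme that modifies N-glycans, at −0.90 ± 0.22 SE (adjusted p = 0.0373). Every one of the 13 high livers lay below the low median for Scarf1 and Atm. Without replicate 9, several of these genes were no longer called. They were Scarf1 (adjusted p = 0.0665), Gng11 (0.0549), Atm (0.0598), Fam216a (0.0867) and 1500026H17Rik (0.096). D130020L05Rik (0.0194), Slc6a8 (0.0317) and E330009J07Rik (0.0346) stayed called.

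The high group was not uniform. Its 4 highest livers, singled out after their scores were seen, had a median Lcn2 of 110 CPM (12.1 to 483) and the other 9 a median of 27.4 CPM (6.86 to 43.9). For Hp the corresponding medians were 5028 (1589 to 7233) and 2684 CPM (1440 to 3532), the latter near the low median of 2268 CPM. The 4 livers were not uniform either. Replicate 40 held 12.1 CPM of Lcn2 and 1589 CPM of Hp, below the medians of the 9. Marco ran the other way, with a median of 0.838 CPM in the 4 livers and 3.30 CPM in the 9, as did Gbp2b, at 5.62 and 10.6 CPM. For each of these genes the ranges of the 4 and the 9 livers overlapped. These within-group differences were not tested. Without the 4 livers 87 genes were higher and 6 lower. Lcn2 then differed by 1.75 (adjusted p = 0.0987) and Orm2 by 0.86 (adjusted p = 0.155), both no longer called, whereas Marco differed by 3.02 (adjusted p = 0.0142), Gbp2b by 2.10 (adjusted p = 0.00979) and Itgb2 by 1.11 (adjusted p = 0.00146).

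Promoters are shown for genes that differed between high and low livers and hold a searched motif: 3 acute phase or Saa genes (Orm2, Lcn2, Saa3) and 4 immune genes (Gbp2b, Igtp, Fcgr4, Cybb). Each sequence is the 250 bases before the transcript start that the RefSeq table lists, in the direction of transcription, on GRCm38.p6, with motif matches in capitals. The gene coordinates given above are GENCODE spans over all transcripts, so the sequences of Cybb and Lcn2 lie inside them and that of Saa3 overlaps one by its last bases.
Orm2, plus strand, chr4:63362199-63362448: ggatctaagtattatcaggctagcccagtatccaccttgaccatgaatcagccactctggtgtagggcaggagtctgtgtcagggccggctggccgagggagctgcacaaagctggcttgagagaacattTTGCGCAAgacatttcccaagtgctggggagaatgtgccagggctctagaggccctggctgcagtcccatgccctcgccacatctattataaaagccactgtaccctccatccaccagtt
Lcn2, minus strand, chr2:32387740-32387989: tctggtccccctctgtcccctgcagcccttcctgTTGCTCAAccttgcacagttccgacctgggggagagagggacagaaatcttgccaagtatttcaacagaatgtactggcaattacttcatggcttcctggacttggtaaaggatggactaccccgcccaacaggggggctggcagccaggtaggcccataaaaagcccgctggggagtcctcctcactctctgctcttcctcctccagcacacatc
Saa3, minus strand, chr7:46715677-46715926: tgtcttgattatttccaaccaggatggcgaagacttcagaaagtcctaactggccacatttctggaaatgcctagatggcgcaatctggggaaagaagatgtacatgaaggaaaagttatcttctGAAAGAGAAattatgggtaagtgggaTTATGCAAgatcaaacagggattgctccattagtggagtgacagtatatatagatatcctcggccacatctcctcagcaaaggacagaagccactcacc
Gbp2b, plus strand, chr3:142594597-142594846: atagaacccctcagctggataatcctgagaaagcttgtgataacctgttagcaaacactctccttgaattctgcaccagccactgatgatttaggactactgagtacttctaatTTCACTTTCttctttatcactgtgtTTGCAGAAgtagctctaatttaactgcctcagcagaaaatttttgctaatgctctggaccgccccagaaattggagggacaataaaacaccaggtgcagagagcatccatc
Igtp, plus strand, chr11:58199306-58199555: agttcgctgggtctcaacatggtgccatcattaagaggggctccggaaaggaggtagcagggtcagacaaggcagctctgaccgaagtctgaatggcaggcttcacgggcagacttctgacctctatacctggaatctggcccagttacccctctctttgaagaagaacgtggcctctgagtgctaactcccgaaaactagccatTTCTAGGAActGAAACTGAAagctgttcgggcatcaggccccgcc
Fcgr4, plus strand, chr1:171018676-171018925: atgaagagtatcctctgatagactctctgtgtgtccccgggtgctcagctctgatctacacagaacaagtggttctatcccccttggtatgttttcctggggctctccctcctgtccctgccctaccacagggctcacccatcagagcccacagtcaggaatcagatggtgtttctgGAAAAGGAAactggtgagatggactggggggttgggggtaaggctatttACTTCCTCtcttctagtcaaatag
Cybb, minus strand, chrX:9469325-9469574: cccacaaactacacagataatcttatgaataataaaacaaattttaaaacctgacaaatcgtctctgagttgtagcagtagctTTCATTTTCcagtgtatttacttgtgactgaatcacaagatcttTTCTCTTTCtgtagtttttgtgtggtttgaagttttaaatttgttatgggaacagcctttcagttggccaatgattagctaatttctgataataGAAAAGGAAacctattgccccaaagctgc
The capitals in Orm2 and Lcn2 and the right-hand ones in Saa3 and Gbp2b match a C/EBP motif, TTGCNNAA. Those in Cybb, the right-hand ones in Igtp and the left-hand ones in Saa3, Gbp2b and Fcgr4 match a shortened interferon-stimulated response element, GAAANNGAA. The left-hand capitals in Igtp match a STAT motif, TTCNNNGAA, and the right-hand ones in Fcgr4 a PU.1 motif, GAGGAAGT. Both strands were searched.

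Motif matches were counted over the 250 bases before and 50 after the start in 107 promoters of higher genes and 10236 promoters of tested genes. The PU.1 motif, whose factor Spi1 directs myeloid cells, was held by 16.8% of the promoters of higher genes and 3.10% of all. The response element was held by 16.8% and 7.37%, the C/EBP motif by 12.1% and 8.66%, and the STAT motif by 8.41% and 7.20%. An NF-kB motif, GGGANTTTC, was held by 1.87% (2 of 107) and 0.977% (100 of 10236). The response element and NF-kB motifs are shortened forms, and longer spellings tried first gave other shares. With those, fewer promoters of both sets held the response element, and NF-kB was not more frequent among higher genes. Among 32 promoters of genes with a positive slope on the score in zileuton livers, described further on, the PU.1 motif was held by 3.12%, the response element by 9.38%, and the C/EBP and STAT motifs by 18.8% each. Some matches of the motifs may overlap one another. These shares are a description, without a test, and a match does not show binding.

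The 49 zileuton livers, which had no part in choosing the 26, gave a separate test. Across them the slope of each gene on the Saa score was fitted by the same edgeR test, as log2 change per unit of score. Of 13920 genes 55 passed (0.395%), 45 with a positive slope (0.323%) and 10 with a negative one (0.0718%). Of the 143 genes higher in high vehicle livers, 137 had a positive slope (95.8%), against 47.6% of 13106 genes tested in both. Their median slope was 0.16, and that of all genes −0.00. Of these genes, 10 were called in both (Marco, Saa3, Orm2, Siglece, Fgl1, Il7, Lrg1, Rasa4, C4b and Serping1), which is 6.99% of the vehicle calls and 22.2% of the zileuton calls. Genes of 1 library vary together, so the 137 are not independent observations.

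Acute phase genes made up 10 of the 45 genes with a positive slope. They came from a list of 29 tested and were Orm2, Lrg1, Fgl1, Lbp, Itih4, Cd14, Serpina10 and the fibrinogen chains Fga, Fgb and Fgg. Orm2 had a slope of 0.49 ± 0.07 SE (adjusted p = 1.42e-05) and Fgb one of 0.14 ± 0.03 SE (adjusted p = 0.0018). Both Saa relatives were called, Saa3 at 0.58 ± 0.08 SE (adjusted p = 2.95e-05) and Saa4 at 0.23 ± 0.05 SE (adjusted p = 0.0172). Of the IL-6 and STAT3 pathway 2 of 24 genes were called, Stat3 at 0.13 ± 0.02 SE (adjusted p = 0.00189) and Socs3 at 0.27 ± 0.06 SE (adjusted p = 0.0134). Lcn2 had a slope of 0.43 ± 0.12 SE and did not pass (adjusted p = 0.1).

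Cxcl1, a neutrophil-attracting chemokine, had a slope of 0.51 ± 0.07 SE (adjusted p = 1.42e-05). Marco was called again, at 0.67 ± 0.11 SE (adjusted p = 0.000443), as were C4b at 0.20 ± 0.03 SE (adjusted p = 0.000443) and Siglece at 0.36 ± 0.06 SE (adjusted p = 0.00191). None of 16 genes of antigen presentation was called, and 14 of 16 slopes were positive. Itgb2 had a slope of 0.20 ± 0.07 SE (adjusted p = 0.214) and H2-DMa one of 0.10 ± 0.07 SE (adjusted p = 0.612). Sqle had a slope of 0.02 ± 0.05 SE (adjusted p = 0.938). Of 23 cholesterol synthesis genes 15 had positive slopes, with a median of 0.01, and none was called. All 35 interferon response genes had positive slopes, and 1 was called, Gbp6. Other lists leaned as far the other way. Slopes were positive in 0 of 23 proteasome genes, 1 of 29 of fatty acid oxidation, 1 of 28 of conjugation and 1 of 30 of the cell cycle. A shared sign within a list was thus not particular to interferon genes, and members of a list vary together.

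**Figure D5:**
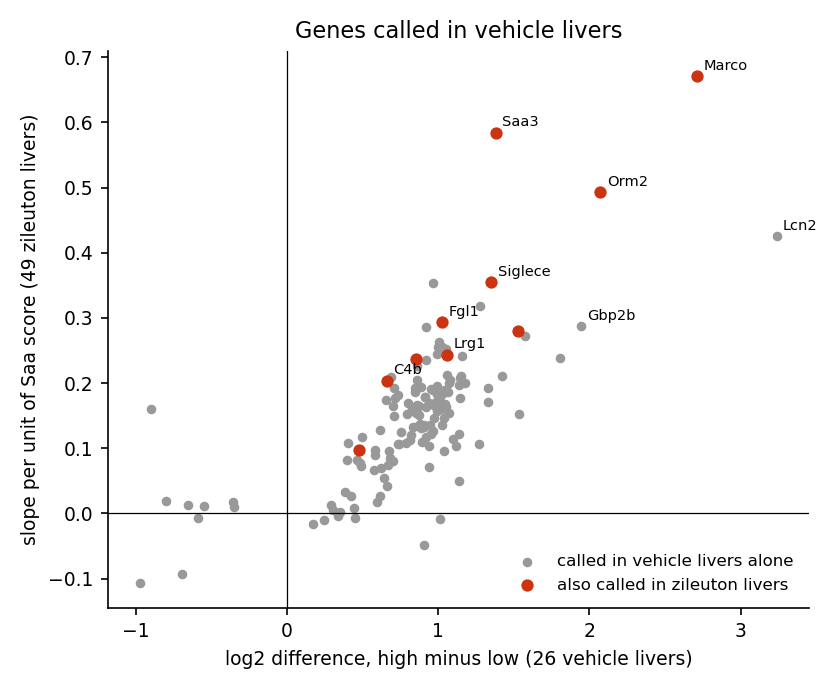
Log2 difference of high minus low in 26 vehicle livers (x axis) and slope on the Saa score in 49 zileuton livers (y axis) for the genes called in vehicle livers. Red points were called in both sets of animals. Of the 143 genes right of 0, 137 lie above 0.

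Of the 10 genes with a negative slope, Mup14 had the largest (−2.29 ± 0.40 SE, adjusted p = 0.00174). Its median was 0.319 CPM and its highest value 598 CPM. Ube2c (−0.55) and Prc1 (−0.52) followed. Abcc2, a bile export pump (−0.16 ± 0.03 SE, adjusted p = 0.0189), Nr1h4, the bile acid receptor FXR (−0.11 ± 0.03 SE, adjusted p = 0.0427), and Cyp2a12 (−0.13 ± 0.03 SE, adjusted p = 0.046) are hepatocyte genes. Chpt1, Simc1, Cdc27 and Rps6kb1 made up the rest. In vehicle livers Abcc2 differed by −0.26 between high and low and did not pass (adjusted p = 0.252). A test of the difference of slopes between vehicle and zileuton livers, over all 90 animals, called 2 of 14463 genes (0.0138%). For Itgb2 the adjusted p of that difference was 0.996, for H2-DMa 0.896, for Fgb 0.549 and for Stat3 0.755. A call in one set of animals and not in the other therefore does not show that the sets differed. A term for the run left 13 genes called in zileuton livers, all with a positive slope.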

How the data were processed

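Liver RNA-seq from 90 animals was analysed, 1 library per animal. The raw table, as deposited, gives for each gene an estimated count, whole in 76.7% of values. The deposited normalized signal was made by the authors by dividing the rounded estimated counts of a library by 1 size factor, as the 2 tables show. Partek, STAR, DESeq2 and mm10 are named, unversioned, in the submitters' processing notes. Counter, annotation and strandedness: not given in the sources used here. Reads of all animals, which differ in founder alleles, were aligned to 1 genome, which can lower counts of divergent alleles.

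Estimated counts were rounded and tested with the edgeR 4.0.16 quasi-likelihood F test (robust, TMM, filterByExpr with a minimum count of 10), with Benjamini-Hochberg adjustment over all genes tested and a threshold of 0.05. Adjusted p-values come from it unless another tool is named. CPM use TMM factors over 90 libraries of 12664579 to 41360187 counts. At these totals genes under about 1 CPM rest on few reads. Of 18223 symbols 97.9% matched 1 GENCODE M21 gene. Alternatives used DESeq2 1.42.0 and limma 3.58.1. The scripts were tested on simulated data. No library was a copy: the closest pair among the 26 had a mean chi-square of 54.0 over genes.

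The rule for named genes took called genes with a mean CPM of at least 1: the 15 of largest change and 3 of lowest p per direction, the 2 leading called members of each of 48 lists or its most abundant member, and a fixed set of acute phase and liver genes. Not all of them are given. Animals and lists were chosen with earlier results of these data known.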

Additional observations from a re-analysis of the deposited data

Results flagged for a closer look

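The slope on the Saa score differed between vehicle and zileuton livers in 2 genes by the edgeR test of the difference itself over 90 animals. Syndig1l differed by −2.47 ± 0.48 SE (zileuton minus vehicle, adjusted p = 0.0217). It was at 0 CPM in 36 of 41 vehicle and 46 of 49 zileuton livers. Dnaic1, a dynein chain of motile cilia, differed by 0.90 ± 0.18 SE (adjusted p = 0.0217), with medians of 0.259 CPM in vehicle and 0.0752 CPM in zileuton livers. Syndig1l was thus detected in few livers. Dnaic1 was at 0 CPM in 1 of 41 vehicle and 11 of 49 zileuton livers, and its level was low. Groups of 13 animals are outside the size for which single samples were tested as outliers.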

How the results depend on the processing

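The comparison as reported called 143 genes higher and 9 lower in high livers. Leaving out each of the 26 libraries in turn gave 83 to 184 higher and 3 to 15 lower genes, and no called gene changed sign. Fewer or no calls came with library totals as scaling (81 higher), coat colour as a covariate (53 higher, 5 lower), the library total as a covariate (62 higher, 1 lower), the run of animal numbers (0 higher, 0 lower), the plate row (0 higher, 0 lower), without the 5 libraries of lowest total (3 higher, 0 lower), 10 against 10 animals (2 higher, 0 lower), 20 against 20 (17 higher, 1 lower), a score from Saa1 alone (4 higher, 0 lower) or Saa2 alone (65 higher, 4 lower), and without the 4 highest livers (87 higher, added after seeing the data). More came with DESeq2 (311 higher, 39 lower), the 15 middle livers as a separate group in the fit (225 higher, 18 lower) and the score as a slope over 41 livers (214 higher, 9 lower). Limma-voom called 123 higher and 15 lower. The 5 libraries of lowest total were all of low livers, so leaving them out also shrank that group. With libraries thinned to the lowest total of the 26, also added later, 134 genes were higher and 7 lower. Across these settings 1 of the 152 calls turned in 1 fit: Slc6a8 was 0.0247 (log2) with 20 against 20 animals. The causes were not tested.

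In zileuton livers DESeq2 called 97 higher and 58 lower, limma-voom 38 higher and 4 lower, the run covariate 13 higher and 0 lower, the coat covariate 20 higher and 0 lower, and 13 against 13 animals 5 higher and 0 lower. Without the animal of highest score 3 were lower and 31 higher, and without the liver with muscle transcripts 51 were higher and 11 lower, an alternative added after seeing the data. The difference of slopes was called in 8 genes without a filter, 0 with the run covariate and 1 without the highest animals. Of the 2 libraries with skeletal muscle transcripts, vehicle replicate 8 was in the middle group and so not among the 26. Without it, also added later, the fit in 3 groups called 227 higher and 20 lower and the slope over vehicle livers 216 higher and 9 lower. Without both libraries the difference of slopes was called in 2 genes. No paired analysis was possible because replicate numbers were given in accession order and pair no animals.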
